A study of Mus musculus with 16 samples.

Results

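Zrsr1, Peg13, Nnat, Plagl1 and Inpp5f are imprinted mouse genes whose imprinted start lies inside another gene, or inside a longer form of the same gene. Their hosts are Commd1, Trappc9 and Blcap, while Plagl1 and Inpp5f carry an outer start of their own. The 8 genes were taken by name, and all CpGs within 2 kb of any of their annotated transcript starts (GENCODE M21, mm10) were kept apart by start. These were 552 of the 1203687 CpGs with at least 10 reads in every library, of which 312 belonged to the 5 imprinted starts and 188 to the 5 host or outer starts. The methylation level of a CpG, or of all CpGs of a start summed, was the percentage of reads that were methylated.

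The cells were immortalised mouse embryonic fibroblasts of the inbred strain C57BL/6J, made from 2 sibling E13.5 embryos, and were named MEF-1 (male) and MEF-2 (female). DNA was enriched with capture probes, converted with bisulfite and sequenced. There were 16 libraries, 1 of each parental line and 7 clonal lines of each family, each clonal line grown from a single sorted cell of its parental line. Clonal lines of a family were therefore sister clones of 1 embryo, a family was a single animal, and sex and family cannot be told apart. The embryos were inbred, so reads of the maternal and the paternal copy could not be separated. Libraries held 59243669 to 90633091 methylation calls, and the median reads per CpG ranged from 26 to 39.

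In genomic imprinting, methylation is laid down in the egg or the sperm and is kept on that parent's copy in all somatic cells of the offspring. The starts described here are known as maternally methylated regions, so that the paternal copy is the active copy of the imprinted transcript. The mark is kept after fertilisation by KRAB zinc finger proteins, among them ZFP57, which binds a methylated TGCCGC hexamer and recruits TRIM28. Where methylated and unmethylated copies are present in equal numbers, the level lies midway between none and full in every cell, and therefore also in every clone.

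The CpG-richest stretch of each imprinted start window is shown because it holds the CpGs most closely packed around the midway level, or at Nnat the high level. Each stretch is the 150 bases of GRCm38.p6 (mm10) that held most measured CpGs, read in the direction of the imprinted transcript, with the measured CpGs in capitals.
Zrsr1 (chr11:22972404-22972553, plus strand): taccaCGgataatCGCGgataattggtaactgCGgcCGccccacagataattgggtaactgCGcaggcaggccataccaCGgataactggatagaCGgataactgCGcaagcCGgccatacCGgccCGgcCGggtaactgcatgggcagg
Peg13 (chr15:72809668-72809817, minus strand): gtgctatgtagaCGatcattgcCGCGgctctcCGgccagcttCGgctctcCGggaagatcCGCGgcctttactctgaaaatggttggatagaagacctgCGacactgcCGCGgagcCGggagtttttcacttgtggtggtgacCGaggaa
Nnat (chr2:157559998-157560147, plus strand): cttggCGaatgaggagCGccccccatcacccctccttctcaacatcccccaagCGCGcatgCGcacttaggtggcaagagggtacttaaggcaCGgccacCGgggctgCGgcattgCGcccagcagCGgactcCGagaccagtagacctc
Plagl1 (chr10:13090847-13090996, plus strand): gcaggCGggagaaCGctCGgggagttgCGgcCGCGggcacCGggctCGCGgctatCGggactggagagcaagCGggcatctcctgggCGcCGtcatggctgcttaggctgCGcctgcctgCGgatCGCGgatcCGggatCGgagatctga
Inpp5f (chr7:128687927-128688076, plus strand): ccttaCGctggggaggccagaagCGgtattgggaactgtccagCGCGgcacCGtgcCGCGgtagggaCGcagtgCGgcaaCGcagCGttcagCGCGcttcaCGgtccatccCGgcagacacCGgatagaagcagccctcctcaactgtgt
These stretches held 13 measured CpGs at Zrsr1, 13 at Peg13, 11 at Nnat, 19 at Plagl1 and 16 at Inpp5f. They lay 404 to 529 bp downstream of the Zrsr1 start, 520 to 651 bp downstream at Peg13, from -75 bp to 53 bp downstream at Nnat, 161 to 295 bp downstream at Plagl1 and 386 to 502 bp downstream at Inpp5f. Averaged over the CpGs shown, the clonal lines had mean levels of 48.7% ± 7.82 (SD, n = 7) in MEF-1 against 41.4% ± 3.40 in MEF-2 at Zrsr1, and 49.6% ± 7.83 and 46.9% ± 8.54 at Peg13. At Nnat the means were 93.1% ± 1.66 and 78.0% ± 15.9, at Plagl1 45.3% ± 3.88 and 46.9% ± 13.3, and at Inpp5f 51.6% ± 12.8 and 56.8% ± 9.14. The Nnat stretch was thus the only stretch of the 5 in which MEF-1 lay above 90%.

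Each imprinted start was nested in an intron. The Zrsr1 start (position 22972005 of chromosome 11, plus strand) lay in intron 2 of 3 of Commd1, on the opposite strand and 10.4 kb from the Commd1 start. Peg13 (72810324 of chromosome 15, minus strand) lay in intron 16 of 21 of Trappc9, on the same strand and 251 kb from its start. Nnat (157560078 of chromosome 2, plus strand) lay in intron 2 of 2 of a longer Blcap transcript, on the opposite strand and 6.28 kb from the main Blcap start. The inner Plagl1 start (13090691 of chromosome 10) lay in intron 3 of 7 of the longer Plagl1 transcript, 30.2 kb downstream of the outer start. The inner Inpp5f start (128687546 of chromosome 7) lay in intron 15 of 19, 76.2 kb downstream of the outer start. Minor host starts also fell inside imprinted windows, since a Blcap start lay within the Nnat window and a Commd1 start within the Zrsr1 window. The CpGs of the former were the 50 of Nnat, and the 75 CpGs of the latter were those of the imprinted Zrsr1 start and of a second Zrsr1 start.

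**Figure D1:**
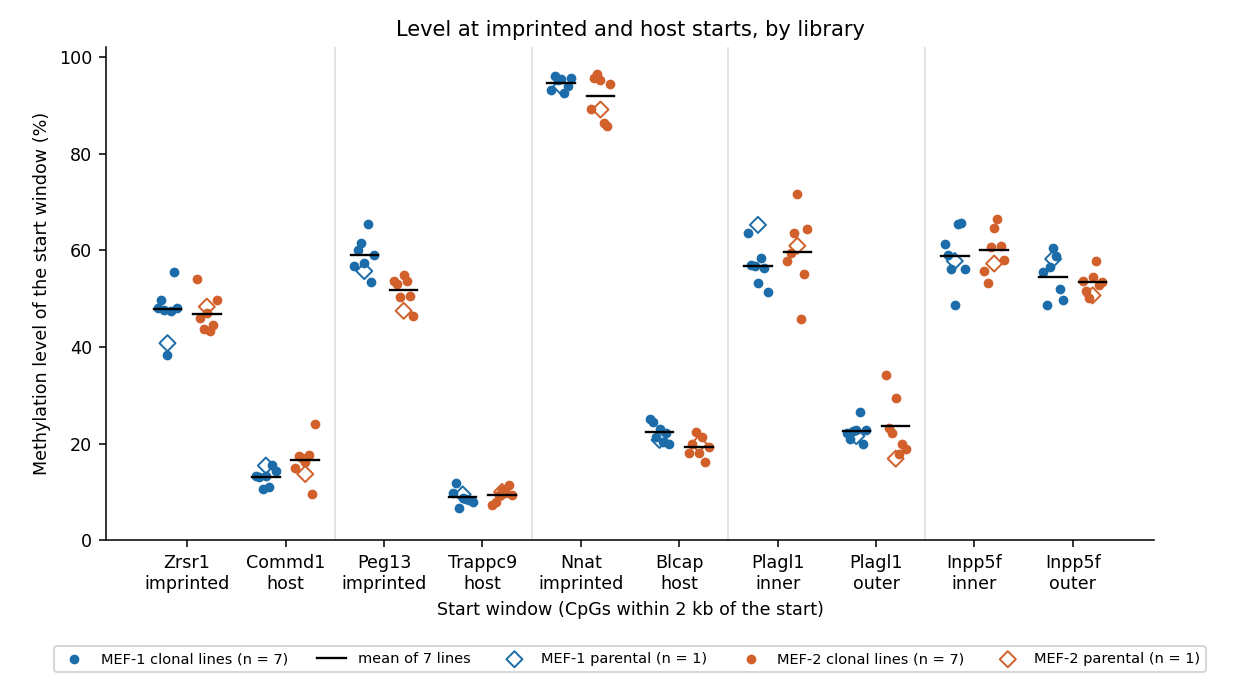
Methylation level (%) of each of the 10 start windows in the 16 libraries. Filled points are clonal lines, black bars their mean over 7 lines and open diamonds the parental libraries. Zrsr1, Peg13, Plagl1 inner and Inpp5f inner lie mostly between 40 and 70%, Nnat above 85%, and the Commd1, Trappc9 and Blcap starts below 26%.

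The first comparison set the imprinted start against the start of its host within each line. In the windows of 2 kb, the imprinted start was more methylated in 14 of 14 lines for Zrsr1, Peg13, Nnat and Plagl1. The mean difference was 32.5 points ± 5.34 (SD) between Zrsr1 and Commd1, 46.3 ± 5.49 between Peg13 and Trappc9, 72.4 ± 3.29 between Nnat and Blcap, and 35.1 ± 6.19 between the inner and the outer start of Plagl1. Each of these 4 had p = 0.000122 in the exact two-sided sign-flip test over the 14 lines, the smallest p that 14 lines can give, and p = 0.0156 in each family, the smallest that 7 lines can give. The inner and the outer start of Inpp5f differed by 5.49 points ± 6.35, with the inner start higher in 12 of 14 lines (exact sign-flip p = 0.00891). By family the Inpp5f difference was 4.36 points in MEF-1 (exact sign-flip p = 0.203) and 6.61 in MEF-2 (exact sign-flip p = 0.0156). It was 41.1 points within 500 bp, and -0.894 when only CpGs with at least 20 reads in every library were used, so its size depended on which CpGs entered. These 5 p-values were not adjusted for each other.

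Zrsr1, an intronless gene that encodes a protein related to the U2AF splicing factor, had a midway level over its 44 CpGs with at least 10 reads in every library. The MEF-1 lines ranged from 38.4% to 55.5% with a median of 48.2%, and the MEF-1 parental library was at 40.8%. In MEF-2 the lines ranged from 43.3% to 54.0% with a median of 46.0%, and the parental library was at 48.3%. The MEF-2 range lay within that of MEF-1. All 44 CpGs of the window had a mean over the 14 lines of 42.6 to 58.2%, from -23 bp to 604 bp downstream of the start. The family means of the window were 47.9% ± 5.02 and 46.9% ± 3.83 (SD, n = 7 each), and the Benjamini-Hochberg adjusted p of the quasi-binomial model was 0.652. Of the 44 CpGs 1 passed the test between families (2.27%), beside 20.2% of all CpGs tested, at 511 bp downstream, with 56.9% in MEF-1 against 38.1% in MEF-2 (quasi-binomial adjusted p = 0.0405). Another 15 CpGs, all upstream of the start, did not reach 10 reads in every library. With 32 to 75 reads per library in all, they were at 64.4% ± 15.5 in MEF-1 and 63.1% ± 15.6 in MEF-2. Commd1, which encodes a protein of copper handling and NF-kappaB control, had 41 of its 48 start CpGs at 6.79% or less. Its window level was 13.1% ± 1.73 in MEF-1 against 16.7% ± 4.31 in MEF-2, with MEF-2 line 7 at 24.1% and MEF-2 line 6 at 9.49%.

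The methylated reads of Commd1 lay mainly at a few CpGs upstream of the start, some of which differed between families and some between sister clones. At -341 bp (negative distances lie upstream of the start), under a median of 132 reads, the MEF-1 lines lay at 45.9 to 52.4% and the MEF-2 lines at 86.1 to 99.3%, with parental levels of 56.1% and 88.6%. This CpG passed the test between families (quasi-binomial adjusted p = 4.2e-06), as did 4 of the 48 CpGs of the window in all (8.33%), beside 20.2% of all CpGs tested. At -136 bp all MEF-1 lines were at 3.25% or less, while MEF-2 lines 2, 4 and 7 had 50.0%, 39.8% and 48.7%, line 3 had 20.7%, and lines 1, 5 and 6 had 1.52%, 2.61% and 0.00%. At -189 bp, line 6 of MEF-1 was at 93.7% and line 5 of MEF-2 at 95.2%, while the other lines lay between 43.4 and 66.4%. Single lines stood apart at Zrsr1 too, with MEF-2 line 3 at 82.9% at 350 bp downstream, line 6 at 84.9% at 368 bp and line 5 at 80.0% at 520 bp. The median SD among sister clones was 8.74 points over the 44 CpGs at Zrsr1 and 1.88 over the 41 lowly methylated CpGs at Commd1.

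Peg13, a long non-coding RNA, was the only imprinted start whose window passed the test between families. The MEF-1 lines ranged from 53.4% to 65.5% with a median of 59.1%, and the parental library was at 55.7%. The MEF-2 lines ranged from 46.5% to 54.9% with a median of 53.1%, and their parental library was at 47.5%. The families overlapped only between 53.4 and 54.9%. The means were 59.1% ± 3.82 and 51.8% ± 2.90, a difference of 7.29 points (quasi-binomial adjusted p = 0.00711). Of all 27322 starts tested in this way 48.5% were called, 29.9% with the higher level in MEF-1 and 18.6% in MEF-2. Of the 5 imprinted and 5 host or outer starts, Peg13 and Blcap were called, both higher in MEF-1. The ranges of the families overlapped at all 10, whereas they did not at 21.2% of all starts. Line 5 of MEF-1, with the highest level, had 1.25 times the median coverage within 5 Mb of the start, and the part of that shift in its level was not tested. Without MEF-1 lines 1, 4 and 5, left out because earlier results of these data gave them low coverage of a chromosome not in the series table, the difference was 6.70 points (quasi-binomial adjusted p = 0.0315).

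The Peg13 difference sat at CpGs farther from the start and not around it. Within 500 bp of the start the family means were 46.7% ± 4.79 and 46.4% ± 5.90, a difference of 0.302 points (quasi-binomial adjusted p = 0.775). Within 1000 bp the difference was 4.62 points and did not pass either (quasi-binomial adjusted p = 0.123). In the window 10 CpGs passed the test, 9.80% of its CpGs, beside 20.2% of all CpGs tested and 11.6% that were higher in MEF-1. All 10 were higher in MEF-1, and lay at -565 bp or farther upstream or at least 1053 bp downstream. Between them, 74 CpGs from -397 bp to 1042 bp downstream had mean levels of 47.7% ± 5.20 in MEF-1 against 45.2% ± 4.11 in MEF-2, a stretch delimited after the values were seen. The runs of neighbouring CpGs that differed on each side of this stretch are given here as the upstream and the downstream edge. They are shown on the minus strand with the differing CpGs in capitals. Each changed between about full and midway methylation from family to family.
Peg13 upstream edge (chr15:72810874-72810935, minus strand): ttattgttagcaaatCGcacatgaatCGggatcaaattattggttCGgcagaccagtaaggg
Peg13 downstream edge (chr15:72808966-72809074, minus strand): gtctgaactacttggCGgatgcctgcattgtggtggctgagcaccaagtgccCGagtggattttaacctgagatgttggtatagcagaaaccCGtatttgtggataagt
At the 3 CpGs of the upstream edge the MEF-1 lines had mean levels of 88.9 to 98.7%, and the MEF-2 lines 40.8 to 52.9%. Their parental libraries were at 79.3% and 47.0%. At the 3 CpGs of the downstream edge the MEF-1 lines had 92.8 to 98.3% and the MEF-2 lines 44.2 to 58.0%, with parental levels of 92.1% and 43.2%. These CpGs were taken because they passed the test, so their values are a description. Trappc9, a subunit of the TRAPP vesicle transport complex, was at 8.91% ± 1.64 and 9.38% ± 1.40 at its start (quasi-binomial adjusted p = 0.620), and 19 of its 22 CpGs were at 2.91% or less.

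Sister clones also split at single CpGs of the Peg13 window. At 540 and 550 bp downstream, MEF-1 lines 2, 3 and 7 had levels of 92.9 to 96.4% at both CpGs, while lines 1, 4, 5 and 6 had 38.0 to 55.6%. The MEF-1 parental library was at 73.3% and 63.6%, and the MEF-2 lines at 33.3 to 69.2%. Beyond the upstream edge, at -716 bp, line 5 of MEF-2 was at 93.9%, as the MEF-1 lines were (88.6 to 100%), whereas the other MEF-2 lines lay at 28.9 to 62.5%.

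**Figure D2:**
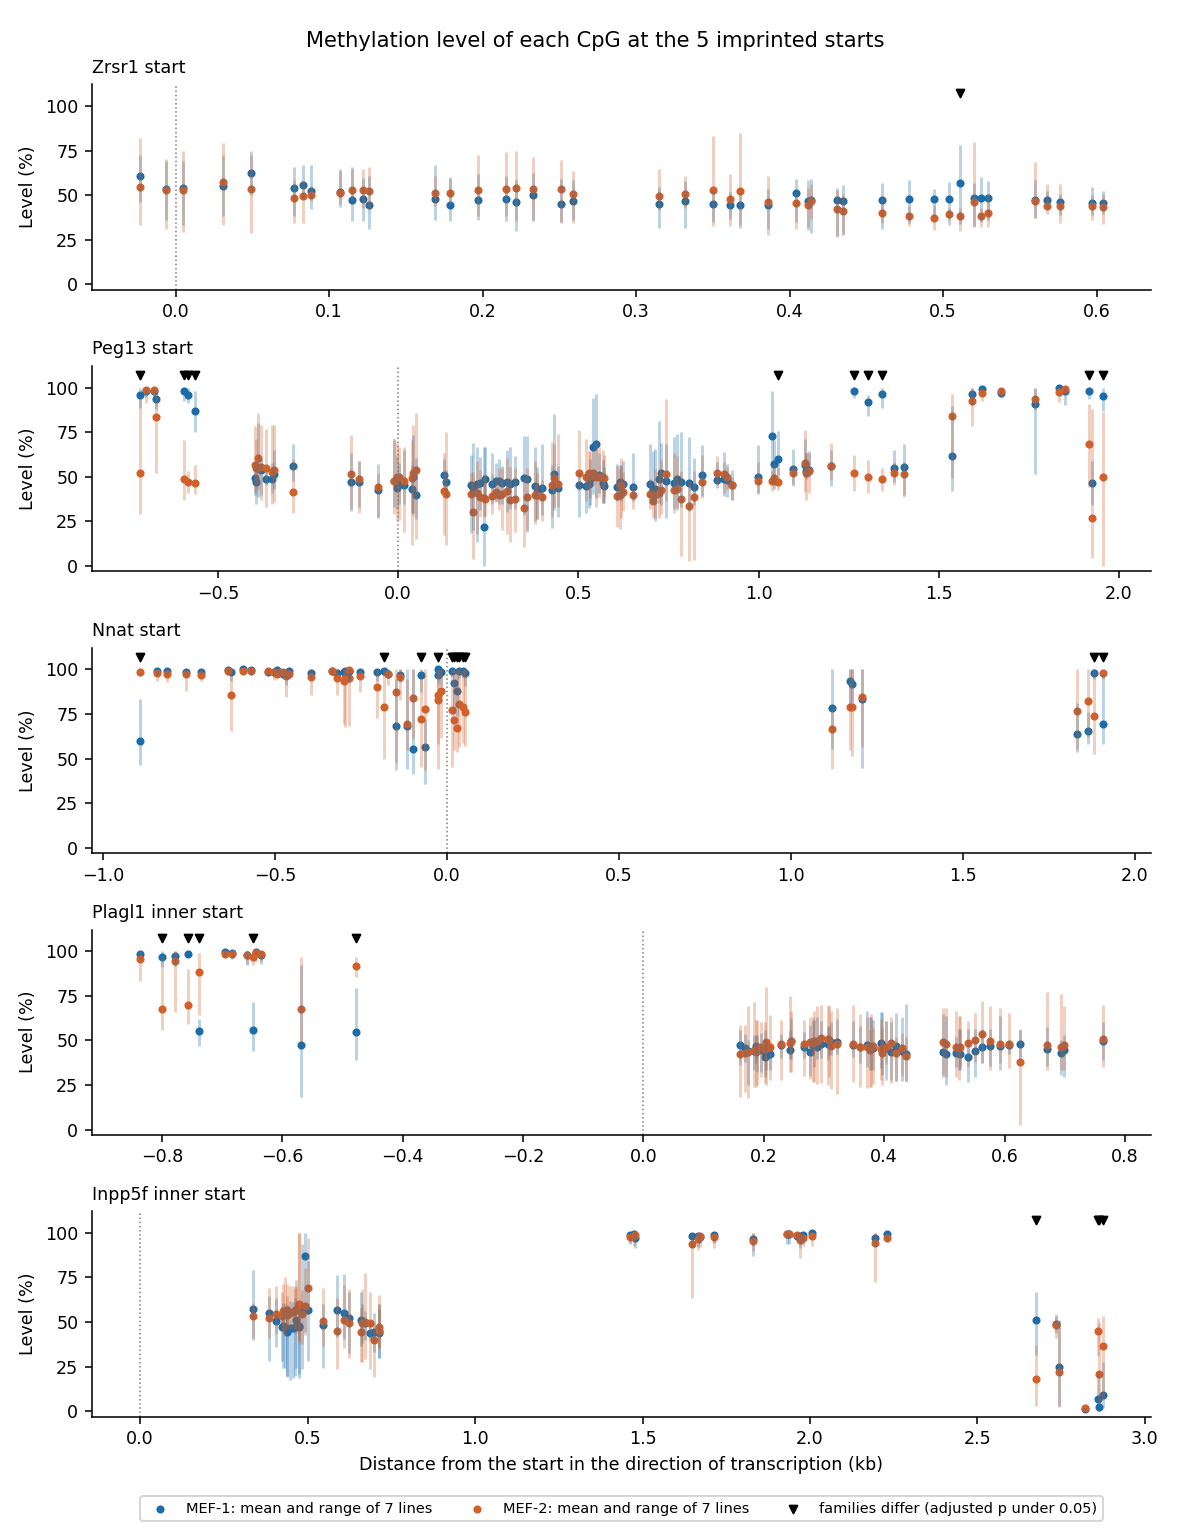
Methylation level (%) of each measured CpG against its distance (kb) from the start in the direction of transcription, 1 panel per imprinted start. Points are means and vertical bars the range of the 7 clonal lines of a family, and triangles mark CpGs with a quasi-binomial adjusted p under 0.05. Among the CpGs drawn, the means of both families lie near 50% at Zrsr1 and around the Peg13 start. They also do so at the first CpGs drawn downstream of the inner Plagl1 and Inpp5f starts, while no CpG is drawn at the first position of these starts (distance 0). The families part at CpGs farther from the Peg13 start, on both sides of it, and at single CpGs upstream of Plagl1.

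Nnat, which encodes the membrane proteolipid neuronatin, was mostly above the midway level at the CpGs of the series table, and lower at the CpGs outside it. Over the 50 table CpGs its window was at 92.6 to 96.1% in the MEF-1 lines (median 95.2%) and at 85.7 to 96.5% in the MEF-2 lines (median 94.4%), with parental levels of 93.9% and 89.1%. The other 108 CpGs of the window, with 593 to 1187 reads per library, were at 77.0% ± 5.19 in MEF-1 and 69.5% ± 17.7 in MEF-2, where the lines ranged from 48.5 to 86.8%. From -750 to -250 bp both families were near full methylation, with means of 96.7 to 99.01% in bins of 250 bp, whereas the last 250 bp before the start were at 86.1% and 84.1%. Of the 50 table CpGs 28 had a mean of 91.8% or more. The difference between the family means was 2.75 points (quasi-binomial adjusted p = 0.145). The spread within MEF-2 was 4.62 points (SD) against 1.34 in MEF-1. Blcap, which encodes bladder cancer-associated protein, had 24 of its 38 start CpGs at 4.56% or less, and its window was at 22.4% ± 1.94 in MEF-1 against 19.4% ± 2.13 in MEF-2 (quasi-binomial adjusted p = 0.0209). Within 500 bp of the Blcap start the families were at 1.09% ± 0.603 and 1.22% ± 0.442 (quasi-binomial adjusted p = 0.661). With CpGs of at least 20 reads the Blcap difference was 0.0282 points (quasi-binomial adjusted p = 0.886), so its call depended on the CpGs that entered.

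At the Nnat start itself the MEF-2 clones differed from each other. Over the 12 measured CpGs within 100 bp of the start, MEF-2 lines 1 to 7 had 59.3%, 91.5%, 95.7%, 91.4%, 65.9%, 60.7% and 84.0%, and the parental library 75.1% (95% Wilson interval 69.5 to 80.0%). MEF-1 lines 1 to 7 had 89.5%, 96.4%, 90.4%, 89.4%, 87.9%, 90.5% and 89.2%, and their parental library 80.6% (75.1 to 85.1%). Lines 1, 5, 6 and 7 of MEF-2 were below every MEF-1 line. The MEF-2 parental level lay within the range of its clones, and the MEF-1 parental level below all 7 of its clones. The 139 to 337 reads behind each value come from overlapping molecules, so the intervals cover counting error only.

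The same 3 lines were lowest at CpGs outside the series table. Each library also had calls at CpGs that did not reach its minimum, and 62 of these lay within 500 bp of an annotated Nnat start, with 418 to 816 reads per library. There MEF-2 lines 1, 5 and 6 had 43.7%, 39.2% and 32.6%, and lines 2, 3, 4 and 7 had 84.0%, 84.3%, 81.1% and 74.6%. The MEF-2 parental library was at 58.5% (55.0 to 61.8%), the MEF-1 parental at 70.4% (67.0 to 73.5%), and the MEF-1 lines ranged from 57.0 to 82.3%. Coverage within 5 Mb of Nnat was 0.995 to 1.01 times the median in MEF-2 lines 1, 5 and 6, 0.79 times in MEF-2 line 3 and 0.891 times in MEF-1 line 7. The last 2 lines were among the highly methylated lines, and the part of their coverage in that was not tested.

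**Figure D3:**
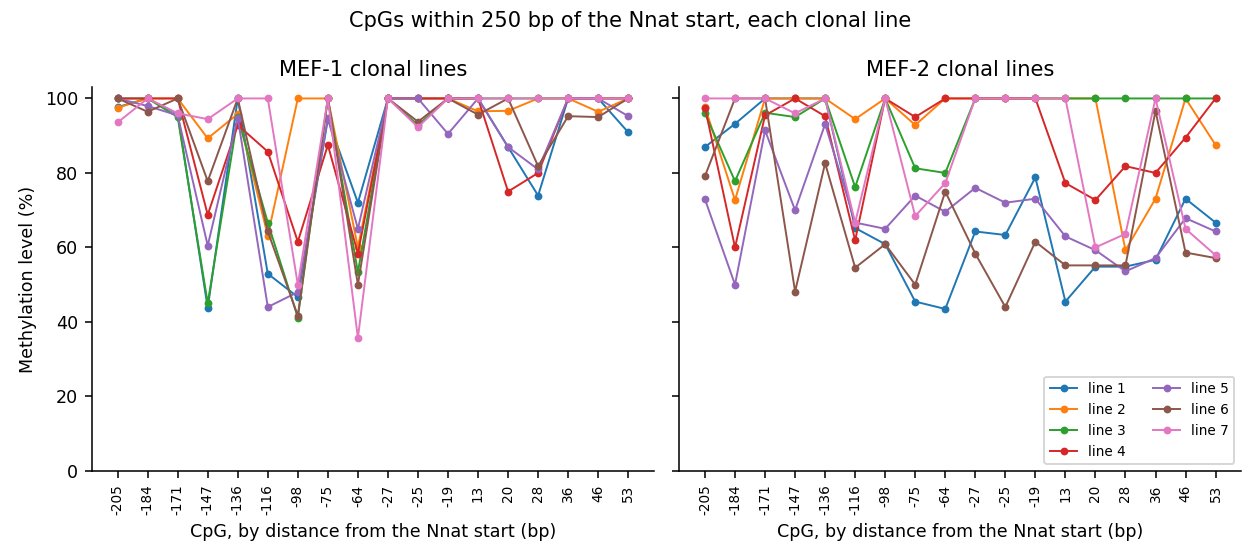
Methylation level (%) of each of the CpGs within 250 bp of the Nnat start in every clonal line, MEF-1 left and MEF-2 right, 1 colour per line. From -75 bp MEF-2 lines 1, 5 and 6 run at about 45 to 80% at most CpGs, while from -27 bp the MEF-1 lines lie above 70%. Farther upstream lines of both families dip at single CpGs.

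Of the 50 Nnat CpGs, 12 passed the test between families, 10 of them higher in MEF-1 and 2 lower. Over all CpGs tested 20.2% passed, 11.6% with the higher level in MEF-1 and 8.53% in MEF-2, and over the 312 CpGs of the 5 imprinted starts 32 did, or 10.3%. At -892 bp the direction was the opposite, with the MEF-1 lines at 46.7 to 83.3% and the MEF-2 lines at 96.2 to 100% (quasi-binomial adjusted p = 9.55e-06). In MEF-2, 19 of the Nnat CpGs had at least 2 lines at 30 to 70% and at least 2 lines at 90% or more, as had 21 of all 312 CpGs (6.73%) and 5.12% of the CpGs in the series. In MEF-1 the count was 5 of 312, beside 3.22% in the series. Splits between 30 to 70% and 10% or less were seen at 2 of the 312 CpGs in MEF-1, beside 3.07% in the series, and at 3 in MEF-2, beside 4.88%.

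Plagl1, which encodes a zinc finger transcription factor also called ZAC1, had a midway block downstream of the inner start and mostly higher levels upstream, with no measured CpG between -477 and 161 bp. The window level in the MEF-1 lines ranged from 51.5 to 63.6% (median 56.8%), with the parental library at 65.3%. The MEF-2 lines ranged from 45.9 to 71.7% (median 59.4%), with the parental library at 60.9%. The family means were 56.7% ± 3.86 and 59.7% ± 8.14 (SD, n = 7 each), and the quasi-binomial adjusted p was 0.531. The 52 CpGs from 161 to 763 bp downstream had family means of 45.5% ± 4.72 and 46.9% ± 10.2. This set was delimited after the values were seen, by the CpGs that passed the test. That none of the 52 passed follows from this choice and is not a result. In the stretch shown above, MEF-2 line 5 was at 26.2% and line 6 at 34.1%, while lines 3 and 4 were at 62.0% and 61.3%. Coverage within 5 Mb was 1.13 times the median in MEF-2 line 4 and 0.988 times in line 5, and the part of the former in the level of line 4 was not tested.

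Of the 65 Plagl1 CpGs 5 passed the test (7.69%), beside 20.2% of all CpGs tested, and all 5 lay at -477 bp or farther upstream of the inner start. At -648 bp the MEF-1 lines were at 43.9 to 71.4% and the MEF-2 lines at 92.3 to 100%, with parental levels of 61.9% and 91.2% (quasi-binomial adjusted p = 2.11e-06). At -477 bp the MEF-1 lines were at 38.9 to 79.3% and the MEF-2 lines at 85.3 to 96.8%, while the MEF-2 parental library had 67.6% (quasi-binomial adjusted p = 0.000144). At these CpGs MEF-1 had the midway level and MEF-2 the high level, the reverse of the edges of Peg13. The direction was not shared by all 5, since at -800 and -756 bp MEF-1 was the higher family, with 96.8% ± 3.52 against 67.4% ± 15.03 and 98.5% ± 1.45 against 69.8% ± 11.5. At -738 bp MEF-2 lines 3 and 4 had 63.9% and 64.9% and the other 5 MEF-2 lines 96.8 to 98.6%, with 58.3% in the parental library, while the MEF-1 lines lay at 47.0 to 61.7%. The outer Plagl1 start was at 22.6% ± 2.05 in MEF-1 against 23.6% ± 6.04 in MEF-2 (quasi-binomial adjusted p = 0.797), with MEF-2 line 1 highest at 34.2%. With CpGs of at least 20 reads MEF-1 minus MEF-2 was -9.46 points at the outer start (quasi-binomial adjusted p = 0.000477).

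Inpp5f encodes an inositol phosphatase, and its inner start makes the imprinted short transcripts. The window ranged from 48.6 to 65.7% in the MEF-1 lines (median 59.1%) and from 53.3 to 66.6% in the MEF-2 lines (median 60.6%), with parental levels of 57.8% and 57.3%. The means of 58.9% ± 6.00 and 60.01% ± 4.70 did not pass the test (quasi-binomial adjusted p = 0.821). Of its 51 CpGs, 27 lay at 42.0 to 55.3% and 16 at 95.7% or more, the latter at least 1463 bp downstream. In the stretch of 16 CpGs shown above, line 4 of MEF-1 was at 27.2%, next to 43.1 to 64.3% in the other MEF-1 lines and 46.0% in the parental library. At the 56 CpGs outside the series table this line was again the lowest of MEF-1, but at 48.8%. Its coverage within 5 Mb was 0.975 times the median, whereas MEF-1 lines 1, 3, 6 and 7 had 0.832, 0.82, 0.887 and 0.828 times, and the part of these shifts was not tested. Of the 51 CpGs 4 passed the test between families (7.84%), beside 20.2% of all CpGs, and all 4 lay at 2676 bp or farther downstream. At 2676 bp the mean was 51.0% in MEF-1 against 18.2% in MEF-2 (quasi-binomial adjusted p = 0.00433). Over the next 3, at 2859 to 2874 bp, the MEF-1 lines had means of 1.57 to 12.4% and the MEF-2 lines 22.5 to 51.3%. Line 6 of MEF-2 was at 100% at 2 CpGs, 473 and 475 bp downstream, where the other MEF-2 lines lay at 38.2 to 68.0%.

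The outer Inpp5f start changed most with the width of the window. In 2 kb the families were at 54.5% ± 4.51 and 53.4% ± 2.42 (quasi-binomial adjusted p = 0.696). This window held methylated CpGs beside 17 CpGs with a mean of 4.51% or less, which lay 311 to 742 bp downstream. Within 500 bp they were at 5.49% ± 3.05 and 17.1% ± 4.16 (quasi-binomial adjusted p = 0.000422), which was lower in MEF-1. The CpG at -494 bp was at 0.00 to 44.4% in the MEF-1 lines and at 90.5 to 100% in the MEF-2 lines, with parental levels of 17.6% and 97.3% (quasi-binomial adjusted p = 5.39e-05). At 1189 bp downstream the order was turned, with 93.5 to 100% in the MEF-1 lines and 22.6 to 54.5% in the MEF-2 lines (quasi-binomial adjusted p = 3.71e-06). These CpGs were among the 10 of 51 in the window of 2 kb that passed the test (19.6%), 5 in each direction, beside 20.2% of all CpGs tested.

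The CpGs of the 5 imprinted starts were also grouped by their mean level. Of the 312 CpGs, 202 had a mean level of 40 to 60% over the 14 clonal lines, and 2 of these 202 (0.99%) passed the test between families. Of the 98369 CpGs of the series with such a mean 36.9% passed. Of the other CpGs of the imprinted starts, 1 of 59 with a mean of 90% or more passed, 0 of 1 with a mean of 10% or less, and 29 of the 50 with means in between. The shares over all CpGs of the series in these other classes were not computed. Whether these counts are high or low for such means was therefore not tested. The median SD among sister clones was 9.12 points in MEF-1 against 11.2 in MEF-2 at the 202 CpGs, beside 15.1 and 18.4 over the 98369. At the host and outer starts 113 of 188 CpGs had a mean of 9.53% or less, and 8 of the 13 with a mean of 40 to 60% passed the test. A CpG whose family means differ widely can also average 40 to 60% over the 14 lines, and such CpGs are part of the 36.9%. CpGs near full methylation in 1 family and midway in the other, as at the Peg13 edges, mostly fall outside the 202.

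The next comparison asked how often a clone kept a midway parental level. At CpGs of the imprinted starts with a parental level of 40 to 60%, of which MEF-1 had 117 and MEF-2 159, a mean of 66.1% ± 8.61 (SD, n = 14) of the calls in a clonal line were again at 40 to 60%. Over all other CpGs of the series with such a parental level the mean was 46.2% ± 3.63. The imprinted starts were higher in 14 of 14 lines, by 19.9 points ± 6.86 (exact sign-flip p = 0.000122). The MEF-1 lines had means of 69.1% at the imprinted starts against 49.1% elsewhere, and the MEF-2 lines 63.2% against 43.4% (exact sign-flip p = 0.0156 in each family). At a CpG methylated in exactly 50% of molecules, binomial sampling of the reads present would put 70.5 to 80.8% of calls at 40 to 60%, depending on the line.

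Calls at the extremes were rarer at the imprinted starts. A level of 10% or less was reached by 0.225% of the calls there and by 5.18% of the calls at the other CpGs. For a level of 90% or more the shares were 0.931% and 6.54%. Both were lower at the imprinted starts in 14 of 14 lines (exact sign-flip p = 0.000122 each). By start, the mean share of calls at 40 to 60% in MEF-1 and MEF-2 was 64.6 and 67.6% at Zrsr1, 73.1 and 64.9% at Peg13, 70.2 and 58.1% at Plagl1, and 66.7 and 64.3% at Inpp5f. Single lines at Plagl1 in MEF-2 ranged from 10% to 90%. Nnat, with 1 such CpG for MEF-1 and 5 for MEF-2, had 57.1% and 31.4%, the latter below the 43.4% of the other CpGs. Without Nnat the difference from the other CpGs was 20.5 points.

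Neighbouring CpGs of the imprinted starts also had more similar levels. To the next measured CpG within 100 bp, the mean absolute difference in level was 6.55 points ± 0.745 (SD, n = 14) at the imprinted starts and 30.4 ± 0.337 at the other CpGs with a midway parental level. It was lower in 14 of 14 lines, by 23.8 points (exact sign-flip p = 0.000122). CpGs a few bases apart can be read on the same molecules, and the part of this in the result was not tested. With the next CpG within 20 bp in both sets the imprinted starts were lower by 20.7 points, and with every CpG thinned to 10 reads by 16.4 points. Between the families this difference varied by 0.205 points (exact permutation p = 0.588).

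**Figure D4:**
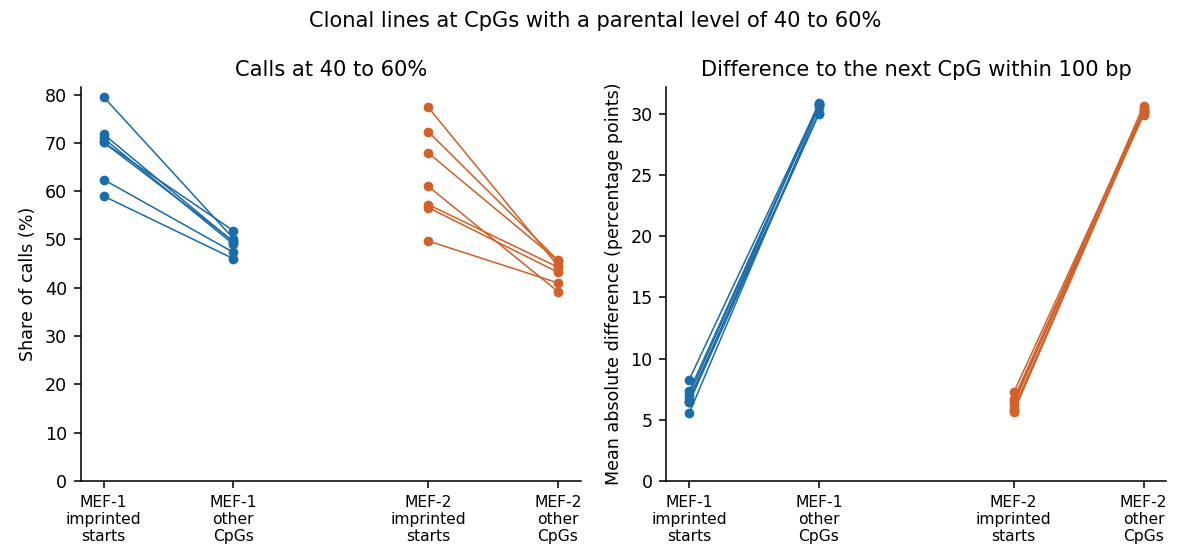
Each clonal line at CpGs of the imprinted starts and at all other CpGs of the series, both with a parental level of 40 to 60%, joined by a line. The left panel gives the share of calls (%) at 40 to 60% and the right panel the mean absolute difference to the next CpG within 100 bp (percentage points), and in all 14 lines the first is higher and the second lower at the imprinted starts.

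The hexamer TGCCGC was searched on both strands, as TGCCGC or GCGGCA, since it is the sequence bound by ZFP57 when its CpG is methylated. Windows of 4001 bases around the first start position held 2 hexamers at Zrsr1, 6 at Peg13, 8 at Nnat, 6 at Plagl1 and 6 at Inpp5f. The host and outer windows held 1 at Commd1, 1 at Trappc9, 1 at Blcap, 0 at outer Plagl1 and 2 at outer Inpp5f. Of the 27322 starts tested, 57.6% had at least 1 hexamer in such a window, 27.1% at least 2, 0.963% at least 6 and 0.176% at least 8. Among the starts with a similar number of CpGs in the window (within 10), 0.625% had as many as Peg13, 0.191% as many as Nnat, 0.586% as many as Plagl1, 0.46% as many as Inpp5f and 39.3% as many as Zrsr1. A match is a description of the letters and not of bound protein.

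Of the 28 hexamers in the imprinted windows 16 had their CpG in the series table. Of these 16, 4 are shown in capitals, 1 for each start that had any. The Peg13 and the Inpp5f sequence each also hold another of the 16 in lower case, at 279 bp and at 426 bp.
Peg13 at 271 bp (chr15:72810037-72810072, plus strand): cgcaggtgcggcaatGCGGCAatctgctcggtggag
Nnat at 28 bp (chr2:157560090-157560125, plus strand): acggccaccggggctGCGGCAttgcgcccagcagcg
Plagl1 at 394 bp (chr10:13091067-13091102, plus strand): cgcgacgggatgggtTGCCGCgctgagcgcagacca
Inpp5f at 437 bp (chr7:128687965-128688000, plus strand): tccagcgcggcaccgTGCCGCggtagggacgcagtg
At the 5 Peg13 hexamers, the mean level ranged from 45.1 to 47.9% in MEF-1 against 39.7 to 52.4% in MEF-2. The 4 hexamers of Plagl1 had 43.1 to 48.2% and 44.6 to 53.3%, and those of Inpp5f 44.8 to 47.9% and 47.3 to 56.2%. At Nnat the hexamers at -298 and -284 bp had 98.9% each in MEF-1 against 95.4% and 95.0% in MEF-2. That at 28 bp downstream had 88.1% ± 11.4 and 66.9% ± 17.5 (SD, n = 7 each). It was the 1 hexamer CpG of 16 that passed the test between families, which 20.2% of all CpGs did (quasi-binomial adjusted p = 0.0279). Its MEF-2 lines had, from 1 to 7, 54.8%, 59.3%, 100%, 81.8%, 53.6%, 55.2% and 63.6%. At the Inpp5f hexamers 426, 437 and 455 bp downstream, line 4 of MEF-1 had levels from 18.4 to 24.4%, the lowest value of the 14 lines at each.

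**Figure D5:**
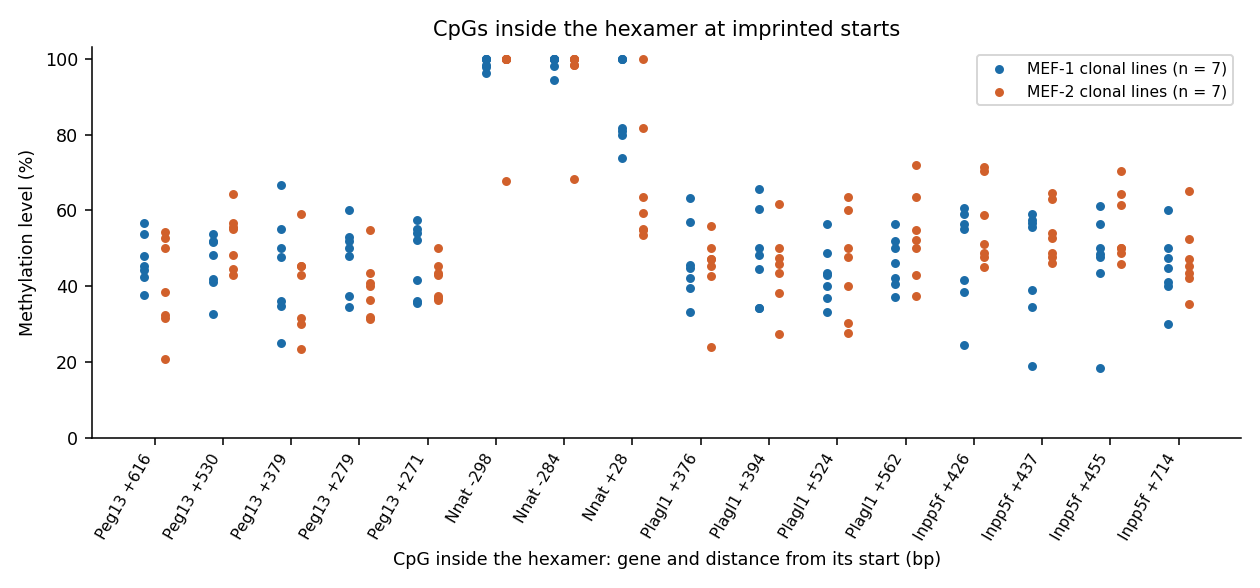
Methylation level (%) of the 16 CpGs that lie inside a hexamer in an imprinted window, labelled by gene and distance from the start (bp), with 1 point per clonal line. Most points of Peg13, Plagl1 and Inpp5f lie between 30 and 70%, and those of Nnat above 90% except for 1 MEF-2 line at each upstream hexamer and for lines of both families at 28 bp.

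The remaining CpGs belonged to minor starts. A second Zrsr1 start at 22973215, with 31 CpGs, was at 47.9% ± 7.85 in MEF-1 against 47.1% ± 4.53 in MEF-2. A Blcap start at 157571274, with 9 CpGs, was at 28.3% ± 3.79 against 22.8% ± 2.85 and passed the test between families (quasi-binomial adjusted p = 0.0296). An Inpp5f start at 128667691, with 6 CpGs, was at 88.4% ± 3.16 against 93.7% ± 3.56 (quasi-binomial adjusted p = 0.0534). An Inpp5f start and a Commd1 start with 3 CpGs each were too small for the test, at 98.7% and 97.3% for Inpp5f and 77.2% and 86.03% for Commd1.

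The parental level was outside the range of the 7 clonal lines in 1 of 10 cases at the imprinted starts, namely Plagl1 in MEF-1. Over all starts this occurred in 18.4% of MEF-1 and 18% of MEF-2 windows. The SD among sister clones at the 5 imprinted starts had a median of 3.86 points in MEF-1 against 4.62 in MEF-2. The 3536 starts with a mean level of 40 to 60% had medians of 4.32 and 4.97. The dispersion of the quasi-binomial model, which is 1 where reads vary as independent draws, was 15.1 to 36.7 at the imprinted starts and 6.08 at the median of those 3536 starts. The dispersion of a summed window also depends on the number of CpGs and reads summed, for which the windows were not matched. It therefore does not show a larger spread between clones. Averaged over the stretches shown above, MEF-2 line 5 was at 26.2% at Plagl1 and MEF-1 line 4 at 27.2% at Inpp5f. Single CpGs departed from the rest of a line, as given above for MEF-2 line 6 at Inpp5f.

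A further 10 genes with a maternally methylated start were listed for comparison, namely Mcts2, Nap1l5, Peg3, Snrpn, Mest, Peg10, Kcnq1ot1, Airn, Grb10 and Slc38a4. For each the start with most measured CpGs was taken, and whether it was the methylated start was not tested. The Grb10 start taken was at 15.7% ± 1.90 in MEF-1 and 18.7% ± 3.05 in MEF-2. Their median level was 49.9%, 7 of 10 had a mean of 40 to 60%, and 3 of 10 passed the test between families, all higher in MEF-1, with 48.5% of all starts called. These were Snrpn (68.1% ± 4.28 and 45.2% ± 5.18), Peg3 (55.9% ± 4.83 and 44.5% ± 4.51) and Kcnq1ot1 (50.4% ± 6.39 and 38.0% ± 4.25). Among further hosts H13, which holds Mcts2, was at 15.6% ± 2.24 and 12.6% ± 2.69, whereas the Herc3 window consisted of the CpGs of Nap1l5 and had its level of 80.3% in MEF-1 against 80.4% in MEF-2. Starts of the factors that keep imprints were at 38.5% and 41.6% for Zfp57, 8.05% and 8.36% for Zfp445, and 8.12% ± 2.09 and 17.3% ± 3.24 for Trim28, of which Trim28 passed the test (quasi-binomial adjusted p = 0.000286).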

How the data were processed

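The 8 genes, the lists and the tests were chosen with earlier results of these data known. The authors trimmed reads with Trim Galore 0.6.0, used Bismark for alignment to mm10, removed low mapping quality (under 10) and biased read ends, combined strands, and worked in R 3.6.1. Duplicate removal is not given in the sources used here. The deposited values are counts of unmethylated and methylated reads per CpG and library, with no normalization. The series table is limited to 16 chromosomes and to CpGs that reached 10 reads in each of the 16 libraries, and its counts equalled those of the library tables at 1203687 of 1203687 CpGs. Its coverage, percentage, fidelity, similarity and density columns, computed by the authors, were not used. All 552 CpGs lay at a CpG of GRCm38.p6. Sequences were read from RefSeq GRCm38.p6, whose promoter table held 6 of the 8 genes.

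Starts of a gene within 1000 bp were merged, and a CpG went to the nearest start of the gene. The imprinted start of Zrsr1, Peg13 and Nnat was the start with most measured CpGs, and that of Plagl1 and Inpp5f the inner start with most. The host start was the start with most transcripts, or the most 5′ start with at least 5 CpGs for Plagl1 and Inpp5f. Families were compared over the 14 clonal lines with a quasi-binomial model on the counts (numpy 2.4.6, scipy 1.17.1), adjusted by Benjamini-Hochberg over all 27322 starts with at least 5 CpGs or over all CpGs, at a threshold of 0.05. Single values were compared with exact two-sided sign-flip or permutation tests over lines. Sister clones share a founder culture, so p-values measure the spread between clones of 2 embryos. Coverage near a start was the mean reads within 5 Mb over the median chromosome, relative to the median MEF-2 clonal line. The model was also run on simulated counts with known differences, and the outcome is not given here. The alternatives were other windows, a minimum of 20 reads, the mean of CpG levels, thinning, left-out lines, a block of line numbers and an exact permutation test. Added after seeing the data were all CpGs without a minimum, a limit of 20 bp to the next CpG, lines without shifted coverage, and leaving out each start.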

Additional observations from a re-analysis of the deposited data

Results flagged for a closer look

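The difference between the Peg13 and the Trappc9 start was larger in MEF-1 than in MEF-2, and the change was itself tested. Its mean was 50.2 points ± 4.30 over the MEF-1 lines against 42.4 ± 3.42 over those of MEF-2 (SD, n = 7 each), so that the families differed by 7.76 points (exact two-sided permutation p = 0.00175). Of the 5 pairs compared in this way it was the only one under 0.05, and the others had exact permutation p-values of 0.105 to 0.897. Adjusted over the 5 pairs by Benjamini-Hochberg, the exact permutation p was 0.00874 for Peg13 and Trappc9 and 0.264 to 0.897 for the others. The change rests on the same lines as the Peg13 window difference of 7.29 points given above, beside -0.467 points at Trappc9, and is not a separate result. The same change was not computed for other pairs of starts of the series. Level and edge CpGs of Peg13 are given above, and within 500 bp of the start the family means of Peg13 differed by 0.302 points. No clonal line stood apart from its 6 sister clones by Dixon's criterion in the 20 groups formed by the 10 start windows and the 2 families, where chance alone would flag about 1 group in 20.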

How the results depend on the processing

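The 4 pairs other than Inpp5f kept their direction and p under 0.05 in every setting that was run, with ranges of 31.8 to 38.9 points for Zrsr1, 41.1 to 54.7 for Peg13, 65.4 to 91.3 for Nnat and 30.6 to 50.1 for Plagl1. The higher share of calls at 40 to 60% (17.9 to 21.5 points) and the smaller difference to the next CpG (-24.7 to -16.4 points) kept theirs as well. The Inpp5f difference fell to -0.894 points at 20 reads. Within 500 bp, 8421 of 20150 starts were called (41.8%) in place of 13252 of 27322 (48.5%). Of the start windows, 1 of 9 was called within 500 bp (outer Inpp5f, with no outer Plagl1 window), 1 of 10 within 1000 bp (Blcap) and 1 of 10 without MEF-1 lines 1, 4 and 5 (Peg13), in place of 2 of 10 (Peg13 and Blcap). At 20 reads the 2 of 9 called were Peg13 and outer Plagl1, and Trappc9 had under 5 CpGs and was not tested. At 20 reads, 133497 of 575475 CpGs were called (23.2%) in place of 242557 of 1203687 (20.2%), and 18 of 170 in the imprinted windows (10.6%) in place of 32 of 312 (10.3%). The difference between families turned within 500 bp for Zrsr1 (-0.704), Trappc9 (0.312), Blcap (-0.123) and outer Inpp5f (-11.7), within 1000 bp for outer Plagl1 (2.76) and outer Inpp5f (-3.20), for the mean of CpG levels at Trappc9 (0.400), outer Plagl1 (1.01) and outer Inpp5f (-1.28), and without MEF-1 lines 1, 4 and 5 at outer Inpp5f (-1.61). The cause was not tested. Outer Plagl1 had no CpG within 500 bp, so its pair has no value there. The line numbers name clones and do not pair them: deviations of same-numbered lines correlated at -0.0104 to 0.0166, and with the numbers as a block 11764 starts and 2 of the 10 windows were called, Nnat (adjusted p = 0.0468) in place of Blcap (adjusted p = 0.0917). The depth of 10 reads at a single CpG limits what a level at 1 CpG can show.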
